A study of Mus musculus with 6 samples.

Results

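The 7 genes described here encode the proteins that turn arachidonic acid into leukotrienes and prostaglandins: Alox5, Alox5ap, Ltc4s, Lta4h, Ptgs1, Ptgs2 and Ptges. They were picked by symbol from the 31053 genes of 6 single-cell count matrices, and all 7 were found. The choice was made with their levels in these data known, so their order over cell classes is a description and carries no test.

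Arachidonic acid is freed from membrane lipids by phospholipases and is then oxidised along separate routes. In the leukotriene route, the lipoxygenase encoded by Alox5 works with the membrane protein FLAP, encoded by Alox5ap. The unstable product is taken on either by the Lta4h hydrolase, which makes a leukotriene that attracts neutrophils, or by the Ltc4s synthase, which makes the parent of the cysteinyl leukotrienes. In the prostaglandin route, the constitutive cyclooxygenase Ptgs1 and the inducible cyclooxygenase Ptgs2 make a shared precursor, and Ptges turns it into prostaglandin E. Myeloid cells and mast cells are the classical makers of leukotrienes, and prostaglandin E made in tumours is known for damping immune responses.

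The libraries came from whole dissociated tumours grown under the skin of male C57Bl/6 mice aged 6 to 8 weeks, each injected with 600000 YUMMER1.7 cells, a single mouse melanoma line. Sedentary libraries 1, 2 and 3 came from the group that did not train. Exercise libraries 5, 6 and 8 came from the group that ran 45 minutes a day at 12 metres per minute for 14 days once tumours had formed. No other genotype, drug or sort is given for either group, and both went through the same digestion at 37 degrees for 15 minutes. The labels do not say whether a library pooled mice, so a p-value here measures the spread between libraries.

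The libraries held 97426009 to 131778565 unique molecular identifiers (UMIs, each standing for 1 captured RNA molecule). After filters, 52390 cells remained, 7201 to 10076 per library, with medians of 5967 to 12513.5 UMIs. The lowest medians were those of sedentary 2 and exercise 5. Any pair of libraries shared 17 to 30 cell barcodes. Cells were put into classes by counting marker genes in each cell, so a class name means cells like that type by its markers. Only cells that passed 1 gate were used, with 1 exception. The monocyte gate was not counted as a second gate, so cells that passed it and the macrophage gate were kept as macrophages. The gates gave 5742 macrophages, 2042 monocytes, 631 neutrophils, 203 mast cells, 4740 T and NK cells and 26190 tumour-like cells, whereas 11586 cells passed no gate and 918 passed more than 1.

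Genes used in a gate lead their class by construction, so the classes are described by the leading genes outside the gates. Among the 10 that exceeded the other cells by the largest factor, these were Pf4, Apoe, Mmp13, Ccl12 and Mmp12 in macrophages, Cxcl2, Stfa2l1 and Wfdc21 in neutrophils and the mast proteases Mcpt2 and Mcpt1 in the mast class. The neutrophil class also had Hdc, a gene of the mast gate, among its 10. The mast class was set to take basophils as well, and its cells had a median of 5 mast markers and 0 basophil markers. The tumour-like class was gated on genes such as Cdh2, Nes, Twist1 and Pdgfra and held little pigment cell RNA apart from Mitf. Over its 26190 cells, Mitf had 5507 UMIs and Pmel 145, while Dct (8 UMIs), Mlana (7), Tyr (4) and Sox10 (2) were nearly absent, so the name rests on the gate and not on pigment genes. The 8 fibroblast markers summed to 814 to 1110 CPM in this class, as much as its own 6 markers (822 to 932 CPM), nearly all of it Col1a2 (905 CPM on average), and 98.2% of the cells had a fibroblast marker UMI. Cells just at the marker minimum numbered 1102 macrophages, 110 neutrophils, 19 mast cells and 6480 tumour-like cells, and 888, 124, 39 and 2859 ungated cells had 1 marker fewer.

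Each gene's UMIs were distributed over these classes in its own way. Levels are given as CPM, the UMIs of a gene scaled to the same fixed UMI total in every class and library, and can be compared only within a gene, because counts at the 3' end are not scaled by gene length. Of the 264 Alox5 UMIs in the series, 35.6% lay in macrophages and 19.3% in mast cells, although mast cells made up 0.387% of cells and 0.0445% of all UMIs. For Alox5ap, macrophages held 45.0% and monocytes 20.3% of 24654 UMIs. The other 5 genes were found mostly in tumour-like cells, which hold 79.8% of all UMIs: 87.0% for Ltc4s, 85.9% for Ptges, 79.0% for Lta4h, 75.8% for Ptgs2 and 75.0% for Ptgs1. The shares of Ltc4s and Ptges were above that figure, whereas those of Lta4h, Ptgs2 and Ptgs1 were at or below it. Alox5 and Alox5ap, which serve the first step of the leukotriene route, had 7.95% and 13.6% of their UMIs in tumour-like cells.

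**Figure D1:**
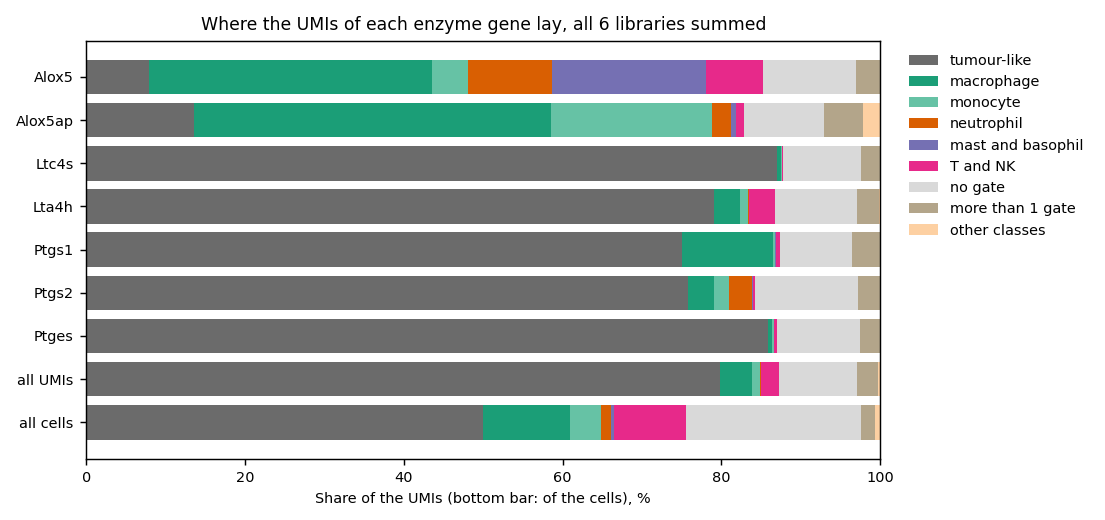
Bars give the share of each gene's UMIs, in percent, by cell class with all 6 libraries summed; the lower bars give the same shares for all UMIs and all cells. Alox5 and Alox5ap stand apart from the other 5 genes, whose UMIs lie mostly in tumour-like cells, as 79.8% of all UMIs do.

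**Figure D2:**
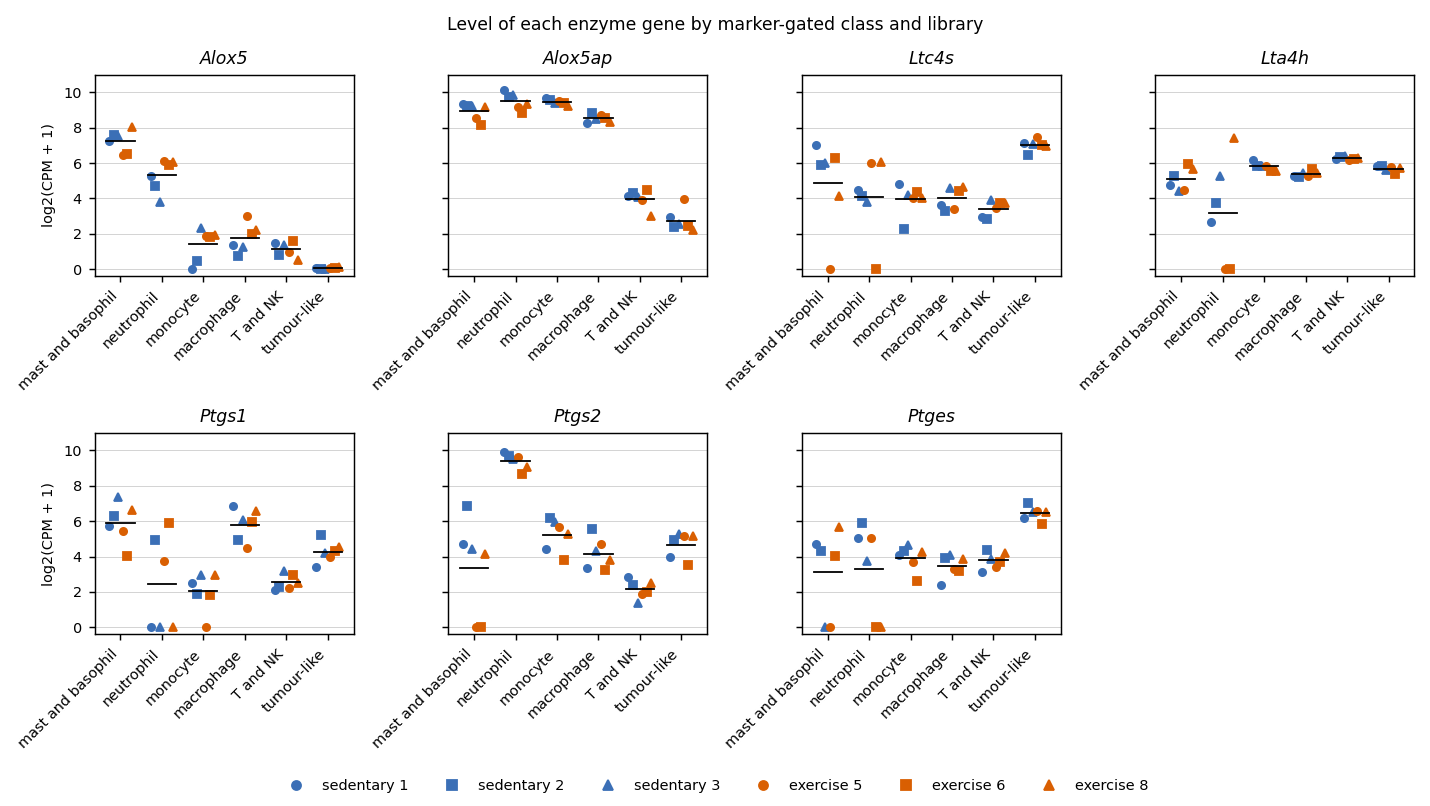
Each panel shows 1 gene, with log2(CPM + 1) on the vertical axis, a point for each of the 6 libraries (blue sedentary, orange exercise) and a black line at the mean. Alox5 is highest in mast cells, Ptgs2 in neutrophils, and Ltc4s and Ptges in tumour-like cells, and groups of points of a class mostly mix blue and orange.

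Alox5, on mouse chromosome 6 (chr6:116410077-116461178, minus strand, GRCm38), had its highest levels in mast cells and neutrophils. In mast cells its level lay between 86.1 and 265 CPM (162 ± 67.8, mean ± SD over 6 libraries), and in neutrophils between 12.7 and 69.6 CPM (44.7 ± 23.4). Macrophages followed at 0.682 to 7.11 CPM, monocytes at 0 to 4.03 CPM and T and NK cells at 0.460 to 1.96 CPM, and these 3 overlapped each other. Tumour-like cells stood at 0.0194 to 0.0684 CPM, and 0 of 225 dendritic cells had an Alox5 UMI, which allows a share of up to 1.33%. The lowest mast library stood above the highest neutrophil library, and the lowest neutrophil library above the highest macrophage library. That lowest neutrophil value, in sedentary 3, rested on 1 UMI. At least 1 Alox5 UMI was seen in 21.2% of mast cells (exact 95% interval 15.8 to 27.5%), 4.12% of neutrophils, 1.48% of macrophages and 0.359% of T and NK cells. Mast cells reached this share with a median of 983 UMIs per cell, against 2566 in T and NK cells. With each cell thinned to 500 UMIs the shares were 7.39% in mast cells, 2.38% in neutrophils and 0.244% in macrophages.

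Alox5ap, on chromosome 5 (chr5:149264767-149288153, plus strand), was shared by all the myeloid classes. Neutrophils (461.6 to 1115 CPM), monocytes (585 to 810.3 CPM), mast cells (286.8 to 638.7 CPM), dendritic cells (340.7 to 466.9 CPM) and macrophages (308 to 450.8 CPM) overlapped with their neighbours in the order. Below them lay a gap, with T and NK cells at 6.90 to 21.1 CPM and tumour-like cells at 3.57 to 14.7 CPM. The share of cells with a UMI was 79.3% in monocytes, 64.0% in macrophages, 54.7% in neutrophils and 39.9% in mast cells, against 2.47% in T and NK cells and 9.65% in tumour-like cells. Tumour-like cells had a median of 18567.5 UMIs, so these shares rest on unequal depth. Thinned to 500 UMIs, the order became neutrophils 31.4%, monocytes 27.2%, mast cells 23.2%, macrophages 15.3% and tumour-like cells 0.309%. In tumour-like cells Alox5ap stood at 1.56% of its macrophage level. Pf4, Apoe, Mmp13, Ccl12 and Mmp12, 5 leading macrophage genes that were not used in the gate, stood there at 0.0877 to 0.256%. These 5 were picked for the largest excess over all other cells, so their lower shares follow from the choice. The source of the Alox5ap UMIs in tumour-like cells was not tested.

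Lta4h, on chromosome 10 (chr10:93453411-93484875, plus strand), was the most evenly spread of the 4 leukotriene genes. T and NK cells had 71.3 to 81.9 CPM, monocytes 45.2 to 72.1 CPM, tumour-like cells 41.2 to 55.1 CPM and macrophages 36.7 to 50.1 CPM. Neighbours in this order overlapped, although T and NK cells were above monocytes in 6 of 6 libraries. Neutrophils and mast cells held 12 UMIs each, too few to place them.

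Ltc4s, on chromosome 11 (chr11:50236461-50238616, minus strand), was highest in tumour-like cells. It stood there at 85.2 to 175 CPM, and 74.3% of the cells had a UMI. Macrophages had 8.87 to 24.5 CPM and T and NK cells 6.06 to 13.8 CPM. These low levels are set beside those of 6 leading tumour-like genes outside the gate (Dkk2, Oaf, Lmo7, Hbegf, Tjp1 and Vangl1). The 6 genes were picked for the largest excess over all other cells, so their low levels in other classes partly follow from the choice. In macrophages with all libraries summed, Ltc4s was at 11.7% of its tumour-like level. Hbegf was at 12.1%, and Dkk2, Oaf, Lmo7, Tjp1 and Vangl1 were at 6.11 to 7.67%. By library the Ltc4s value was 7.93% in sedentary 1, 10.4% in sedentary 2, 16.9% in sedentary 3, 5.43% in exercise 5, 15.9% in exercise 6 and 20.1% in exercise 8. It was above all 6 genes in sedentary 3, exercise 6 and exercise 8 and not in the other 3. In T and NK cells Ltc4s was at 7.29%, below the 8.68 to 12.2% of the same 6 genes. The part of free RNA in these levels was not tested. Mast cells held 17 Ltc4s UMIs, with 128, 57.2 and 62.2 CPM in sedentary 1, 2 and 3 and 0, 75.5 and 16.6 CPM in exercise 5, 6 and 8. At 41.6% of the tumour-like level, the mast value lay above the 0 to 36.0% of the same genes, on few UMIs. The annotated gene Gm26542 lies over Ltc4s on the other strand, and whether the counting used strand is not given in the sources used here.

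The 3 prostaglandin genes differ in the sequence just before their start. These windows are shown as a description, and a link between any motif and the levels below was not tested. Each line gives the 120 bases before the RefSeq start (GRCm38.p6), 5′ to 3′ on the gene's strand, with any match to 4 searched motifs in capitals: the C/EBP palindrome TTGCGCAA, the GC box GGGCGG, the TATA box TATAAA and the E-box CACGTG, each on both strands.
Ptgs1, chr2:36230306-36230425, plus strand: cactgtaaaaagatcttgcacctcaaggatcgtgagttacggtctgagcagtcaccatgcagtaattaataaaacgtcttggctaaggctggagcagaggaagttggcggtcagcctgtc
Ptgs2, chr1:150099911-150100030, plus strand: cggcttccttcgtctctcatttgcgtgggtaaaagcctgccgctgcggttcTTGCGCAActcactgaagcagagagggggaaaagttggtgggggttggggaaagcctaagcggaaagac
Ptges, chr2:30903298-30903417, minus strand: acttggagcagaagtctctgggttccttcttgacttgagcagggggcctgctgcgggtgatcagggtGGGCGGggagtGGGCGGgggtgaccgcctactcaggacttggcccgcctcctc
The Ptgs2 window holds the C/EBP palindrome 69 bases before the start, and 0.164% of 32851 RefSeq promoter windows of 250 bases hold it. The Ptges window holds GC boxes 53 and 42 bases before the start, a motif that 32.7% of the 250-base windows hold, those of Ptgs2 and Alox5 among them. None of the 4 motifs is in the 250 bases before Ptgs1. The TATA and E-box motifs are in 12.4% and 6.02% of promoters and in none of the 6 member promoters of the table, which holds no entry for Alox5ap.

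Ptgs1, on chromosome 2 (chr2:36230426-36252272, plus strand), was highest in mast cells and macrophages. Macrophages had 21.3 to 114 CPM and mast cells 15.1 to 166 CPM on 23 UMIs, and the 2 classes overlapped. Tumour-like cells stood at 9.64 to 36.6 CPM and monocytes at 0 to 6.87 CPM. A UMI was seen in 16.6% of macrophages, 0.881% of monocytes and 1.46% of T and NK cells, so macrophages and monocytes, which share most myeloid genes, were set apart by Ptgs1.

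Ptgs2, on chromosome 1 (chr1:150100031-150108227, plus strand), was by far highest in neutrophils. Its level in neutrophils, 403.9 to 973 CPM, was far above that of the next class, monocytes, at 12.9 to 70.7 CPM (16.6-fold between the means). Mast cells, tumour-like cells and macrophages followed and overlapped, at 0 to 114, 10.5 to 37.0 and 8.30 to 45.9 CPM. A UMI was seen in 45.6% of neutrophils (exact 95% interval 41.7 to 49.6%), against 13.9% of tumour-like cells and 1.01% of T and NK cells. Thinned to 500 UMIs, the shares were 30.3%, 1.29% and 0.338%. Neutrophils are few, so they held 582 of the 19386 Ptgs2 UMIs while making up 0.102% of the UMIs of the series.

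Ptges, on chromosome 2 (chr2:30889471-30929863, minus strand), had its highest level in tumour-like cells. These stood at 55.3 to 132 CPM, and 64.2% of them had a UMI. The myeloid, mast and T and NK classes lay between 0 and 58.2 CPM, the highest being the neutrophils of sedentary 2, which overlapped the lowest tumour-like library, exercise 6. Within each of the 6 libraries tumour-like cells were above neutrophils. Cells that passed no gate had 47.8 to 136 CPM, close to the tumour-like class. In macrophages Ptges reached 12.4% of the tumour-like level, where Hbegf stood at 12.1% and the rest of the 6 leading tumour-like genes at 6.11 to 7.67%. In T and NK cells Ptges reached 14.6%, above the 8.68 to 12.2% of the same 6 genes. The part of free RNA in these levels was not tested. Gm13400 overlaps Ptges on the same strand, and any effect of this on the Ptges counts was not tested.

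Cells with UMIs for successive steps of the leukotriene route were rare at this depth. Alox5 and Alox5ap were seen together in 11.8% of mast cells, 3.17% of neutrophils and 1.08% of macrophages, and in 1 of 26190 tumour-like cells. Adding Lta4h left 17 macrophages, 2 mast cells and 0 neutrophils, which allows a share of up to 0.475% of neutrophils, and adding Ltc4s instead left 4 macrophages, 1 mast cell and 1 neutrophil. In the prostaglandin route such cells were more frequent in the deeply sequenced tumour-like class, where Ptges was seen with Ptgs1 in 14.7% and with Ptgs2 in 10.4% of cells. The shares count cells with a UMI, not cells that express the genes, and the intervals and limits given here cover counting error only.

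Within macrophages, Alox5ap, Ptgs1 and Lta4h differed with the number of monocyte markers, a split chosen after the data were seen. Macrophages were divided by how many of 8 monocyte markers had a UMI: 1370 cells with 0, 2334 with 1 or 2 and 2038 with 3 or more. The mean Alox5ap level went from 180 to 308 to 522 CPM (2.91-fold), higher in the last set than in the first in 6 of 6 libraries. Ptgs1 ran the other way, from 112 to 80.7 to 18.5 CPM, lower in 6 of 6 libraries. Lta4h went from 31.7 to 45.7 CPM, higher in 6 of 6 libraries. Depth differed between the sets, with medians of 1409.5, 5552.5 and 4858 UMIs. Among cells of 3000 to 8000 UMIs the Alox5ap ratio was 3.09 and the Ptgs1 ratio 0.112, each in 6 of 6 libraries. Ptges was lower in the last set in 6 of 6 libraries over all cells (17.0 to 6.92 CPM) but in 3 of 6 among cells of similar depth. Alox5 gave 5.15 and 1.69 CPM on 21 and 23 UMIs, lower in 5 of 6 libraries, and in 3 of 6 at similar depth. Ptgs2 was higher in the last set in 4 of 6 libraries (13.3 against 23.7 CPM) and in 6 of 6 at similar depth (9.43 against 24.4 CPM). Ltc4s, at 19.1 and 16.2 CPM, was higher in 3 of 6 libraries and in 4 of 6 at similar depth.

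**Figure D3:**
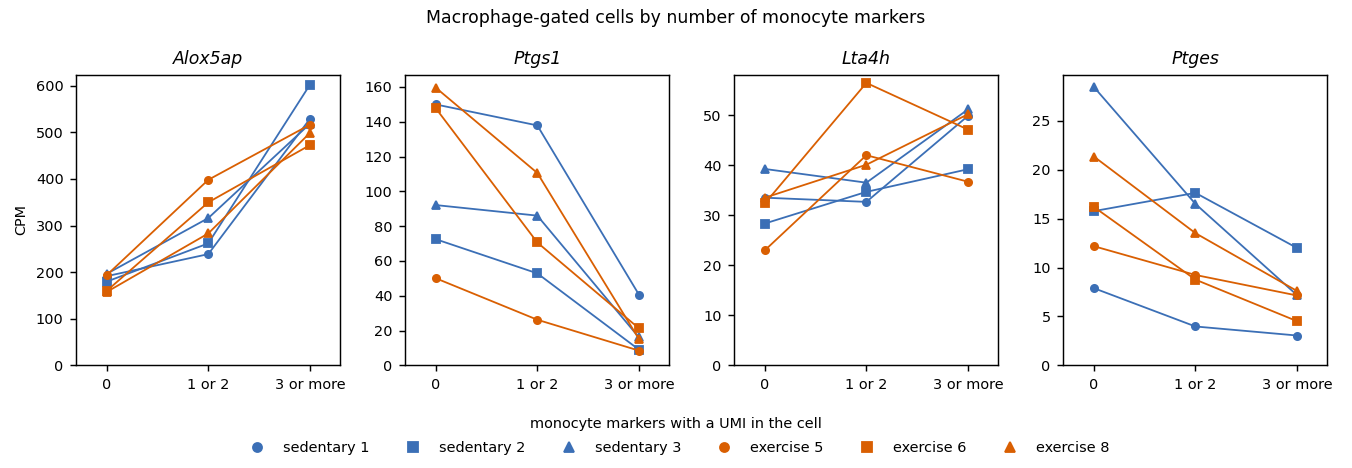
Macrophage-gated cells are split on the horizontal axis by the number of monocyte markers with a UMI, the vertical axis is CPM, and each line is 1 of the 6 libraries. Alox5ap climbs from means of 180 to 522 CPM in every library, and Ptgs1 goes from 112 down to 18.5 CPM in every library.

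Ptgs2 RNA went with immediate early genes, a set of 20 fast-responding genes such as Fos, Egr1 and Dusp1 that tissue digestion can also switch on. Tumour-like cells of each library were ranked by the share of their UMIs that came from this list and cut into 3 equal sets. The mean Ptgs2 level was 5.49, 12.5 and 63.1 CPM from the lowest to the highest set, an 11.5-fold difference, with the highest set above the lowest in 6 of 6 libraries. In the highest set, single libraries ranged from 18.8 CPM in exercise 6 to 95.8 CPM in exercise 5. Ptges went from 63.0 to 124 CPM and Ptgs1 from 13.9 to 25.8 CPM, both in 6 of 6 libraries. Ltc4s was lower in the highest set, 155 against 114 CPM, in 6 of 6 libraries, whereas Lta4h (50.5 and 52.1 CPM) and Alox5ap (5.98 and 6.36 CPM) were higher in 3 of 6. Macrophages gave the same picture for Ptgs2, from 4.21 to 48.6 CPM in 6 of 6 libraries, but the opposite one for Ptgs1, from 90.9 to 41.0 CPM, lower in 6 of 6. Alox5ap in macrophages went from 314 to 433 CPM, higher in 6 of 6 libraries. The neutrophil class, which led in Ptgs2, also had an immediate early sum of 7675 to 12756 CPM, against 1495 to 2421 CPM in macrophages and 1343 to 1888 CPM in tumour-like cells. Whether the RNA arose in the tumour or during dissociation was not tested.

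**Figure D4:**
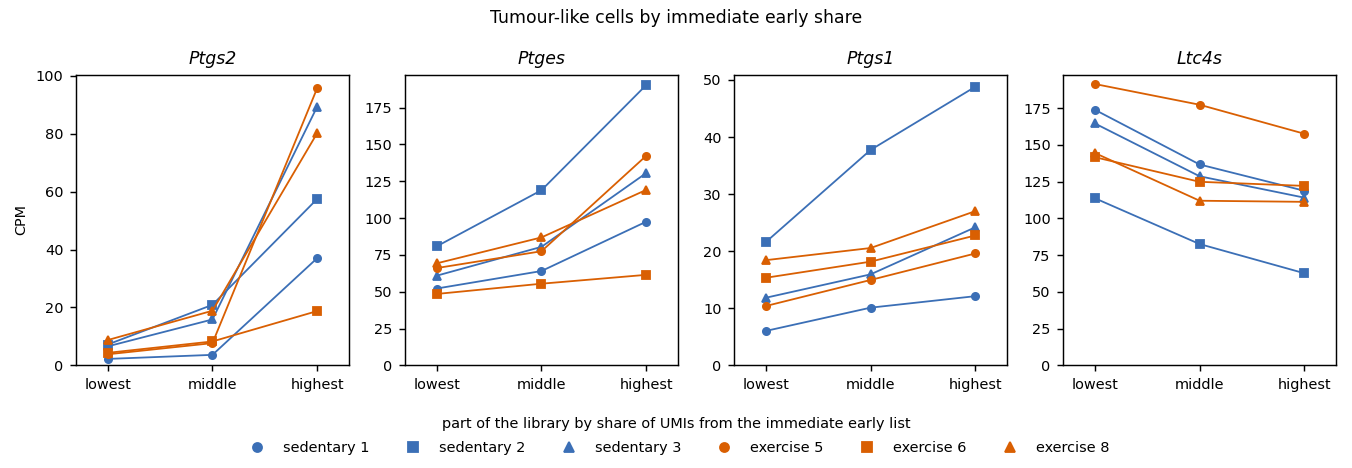
Tumour-like cells of each library are split on the horizontal axis into 3 equal sets by the share of UMIs from 20 immediate early genes, the vertical axis is CPM, and each line is 1 library. Ptgs2 climbs from a mean of 5.49 to 63.1 CPM, Ptges and Ptgs1 climb less, and Ltc4s goes from 155 to 114 CPM.

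Exercise was compared with sedentary on UMIs summed per library, for the whole tumour and for the 4 classes. In none of the 5 comparisons did a member pass edgeR's quasi-likelihood test after adjustment over all genes, and no gene of any kind did. In the whole tumour 0 of 7 members and 0 of 15509 genes (0%) were called by edgeR, 0 members and 399 genes (2.57%) had an unadjusted p under 0.05, and DESeq2 called 0 members and 22 genes (0.142%). In sums over whole tumours, fewer cells of a type and less RNA per cell cannot be told apart. The whole-tumour fold changes of the members ran from -0.33 for Ptges to 1.00 for Alox5 on the log2 scale, and all 7 had overlapping groups, where 6.87% of all genes did not overlap (3.16% with exercise higher and 3.71% with exercise lower). Alox5 was 0.282, 0.294 and 0.203 CPM in sedentary and 0.936, 0.270 and 0.389 CPM in exercise 5, 6 and 8. Exercise 5 alone stood far above the rest, and without it the log2 fold change was 0.37.

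In macrophages, Alox5 was the member with the widest gap between the groups. It stood at 1.60, 0.682 and 1.41 CPM in sedentary 1, 2 and 3 and at 7.11, 2.93 and 3.59 CPM in exercise 5, 6 and 8, on 94 UMIs in all. Every exercise library was above every sedentary one, and exercise 5 was the highest. The log2 fold change was 1.97 (SE 0.50), and edgeR's adjusted p was 1.0 over 10665 genes, with an unadjusted p of 0.0025. Alox5 was the 1 member of 7 that did not overlap and the 1 with an unadjusted edgeR p under 0.05, against 7.41% (4.79% higher, 2.62% lower) and 2.63% of all genes tested, and 0% of genes were called. DESeq2 called 0 members and 3 genes (0.0281%). Without sedentary 2 and exercise 5 the log2 fold change of Alox5 was 1.07, and without exercise 5 alone it was 1.43.

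Genes of mast cells were also higher in exercise macrophages. The summed level of 6 mast genes, all of which had a UMI, was 17.1, 23.2 and 24.0 CPM in macrophages of sedentary 1, 2 and 3. It was 24.9, 38.8 and 40.3 CPM in exercise 5, 6 and 8. Every exercise library was above every sedentary one in this sum, as in Alox5. Among the exercise libraries, exercise 5 was the highest in Alox5 and the lowest in this sum. In monocytes the same sum was 30.5 to 40.3 CPM in sedentary and 65.8 to 72.4 CPM in exercise libraries. In the 5054 macrophages without a UMI of those genes, Alox5 stood at 1.75, 0.581 and 1.56 CPM in sedentary and 6.65, 3.52 and 3.75 CPM in exercise libraries. The groups did not overlap there either, but only 12.0% of macrophages had such a UMI, so this choice left out few cells. The part of mast cell RNA in the Alox5 values was not tested. The summed neutrophil markers were 139 to 411.1 CPM in sedentary and 139 to 160 CPM in exercise macrophages.

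The other 6 members overlapped between the groups in macrophages. Alox5ap was 308, 450.8 and 355 CPM in sedentary 1, 2 and 3 and 426, 373 and 317 CPM in exercise 5, 6 and 8, a log2 difference of -0.04 (SE 0.17). Ptgs1 varied most between libraries, with 114, 29.5 and 65.4 CPM in sedentary and 21.3, 61.3 and 94.3 CPM in exercise libraries. Its lowest values were in sedentary 2 and exercise 5, 1 of each group, where the summed monocyte markers were highest, at 3263 and 1912 CPM against 1345 to 1613 CPM in the other 4. Ptgs2 was 9.06, 45.9 and 18.6 CPM in sedentary and 25.5, 8.30 and 12.9 CPM in exercise libraries, and sedentary 2 had both the highest Ptgs2 and the highest immediate early sum. The part of these marker levels in the result was not tested.

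In neutrophils, 2 of 7 members had enough UMIs to be tested. Alox5ap was 1115, 848 and 926 CPM in sedentary 1, 2 and 3 and 582, 461.6 and 634 CPM in exercise 5, 6 and 8. All 3 exercise libraries were below all 3 sedentary ones, and exercise 6 rested on 8 UMIs (log2 fold change -0.88, SE 0.27, edgeR adjusted p 0.163). Ptgs2 was 973, 806 and 723 CPM in sedentary and 778, 403.9 and 533.5 CPM in exercise libraries, with exercise 5 inside the sedentary range (log2 fold change -0.54, SE 0.28, edgeR adjusted p 0.591). Of the 1752 genes tested in neutrophils, 0% were called by edgeR and by DESeq2, 8.73% had an unadjusted edgeR p under 0.05, as did 1 member, and 15.6% did not overlap between the groups, 10.8% with exercise higher and 4.79% lower.

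Neutrophil numbers and makeup also differed between the libraries. The class held 166, 172 and 80 cells in the sedentary libraries and 161, 20 and 32 in exercise 5, 6 and 8. The 10 neutrophil markers, all detected, summed to 122098, 100976 and 75611 CPM in neutrophils of sedentary 1, 2 and 3. They summed to 67269, 43335 and 77428 CPM in exercise 5, 6 and 8. The 6 mast genes summed to 52.6, 33.2 and 25.4 CPM in neutrophils of sedentary 1, 2 and 3 and 145, 231 and 267 CPM in exercise 5, 6 and 8. These sums rest on few UMIs in the smaller libraries. There 1 UMI equals 12.7 CPM in sedentary 3 and 57.7 CPM in exercise 6, and 2 UMIs equal 66.7 CPM in exercise 8. The part of the cell numbers, of the neutrophil marker level and of the mast genes in the Alox5ap values was not tested. In the 582 neutrophils without a UMI of the mast genes, Alox5ap was 1137, 844 and 947 CPM in sedentary and 573, 458 and 555 CPM in exercise libraries. Alox5 was not tested, with 28 UMIs, and was 36.8, 24.9 and 12.7 CPM in sedentary and 69.6, 57.7 and 66.7 CPM in exercise libraries. Its groups did not overlap, but sedentary 3 and exercise 6 rested on 1 UMI each and exercise 8 on 2. The other 4 members held 10 to 26 UMIs in neutrophils.

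In mast cells only Alox5ap could be tested. It was 638.7, 591 and 601 CPM in sedentary and 366, 286.8 and 563 CPM in exercise libraries, so all 3 exercise libraries were lower, exercise 8 by little (log2 fold change -0.57, SE 0.33, edgeR adjusted p 0.882). Of 584 genes tested there, 0% were called by edgeR, 1 gene (0.171%) by DESeq2, 4.97% had an unadjusted edgeR p under 0.05, and 9.93% did not overlap, 4.28% with exercise higher and 5.65% lower. Alox5 was 153, 191 and 187 CPM in sedentary mast cells and 86.1, 90.6 and 265 CPM in exercise 5, 6 and 8, on 51 UMIs. Exercise 8 was the highest of all 6 libraries, and exercise 5 and 6 were the lowest. Ptgs2, on 9 UMIs, was not tested. It was 25.5, 114 and 20.7 CPM in sedentary and 0, 0 and 16.6 CPM in exercise 5, 6 and 8, without overlap. The 12 mast and basophil markers summed to 66535 to 84974 CPM in sedentary and 63678, 46146 and 86190 CPM in exercise 5, 6 and 8. Each library held 23 to 43 mast cells, and the part of this marker level in the values was not tested.

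In tumour-like cells, 6 of 7 members were tested and all 6 overlapped between the groups. Alox5, with 21 UMIs, was not tested. It stood at 0.0194 to 0.0294 CPM in sedentary and 0.0297 to 0.0684 CPM in exercise libraries, so its groups barely failed to overlap. Ltc4s was 141, 85.2 and 135 CPM in sedentary and 175, 129 and 122 CPM after exercise, a log2 difference of 0.24 (SE 0.21). Ptges was 72.1, 132 and 90.8 CPM in sedentary and 95.1, 55.3 and 91.6 CPM in exercise libraries (-0.28, SE 0.28). Sedentary 2, the highest in Ptges and Ptgs1, was the lowest in Ltc4s. Ptgs2 was 14.6, 29.1 and 37.0 CPM in sedentary and 35.3, 10.5 and 35.0 CPM in exercise libraries (-0.01, SE 0.51), and its 2 low libraries, sedentary 1 and exercise 6, came from different groups. Alox5ap in exercise 5, at 14.7 CPM, was above the 3.57 to 6.61 CPM of the other libraries. Of 14313 genes tested there, 0% were called by edgeR, 32 (0.224%) by DESeq2, 3.98% had an unadjusted edgeR p under 0.05 and 8.68% did not overlap, 3.68% with exercise higher and 5% lower.

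**Figure D5:**
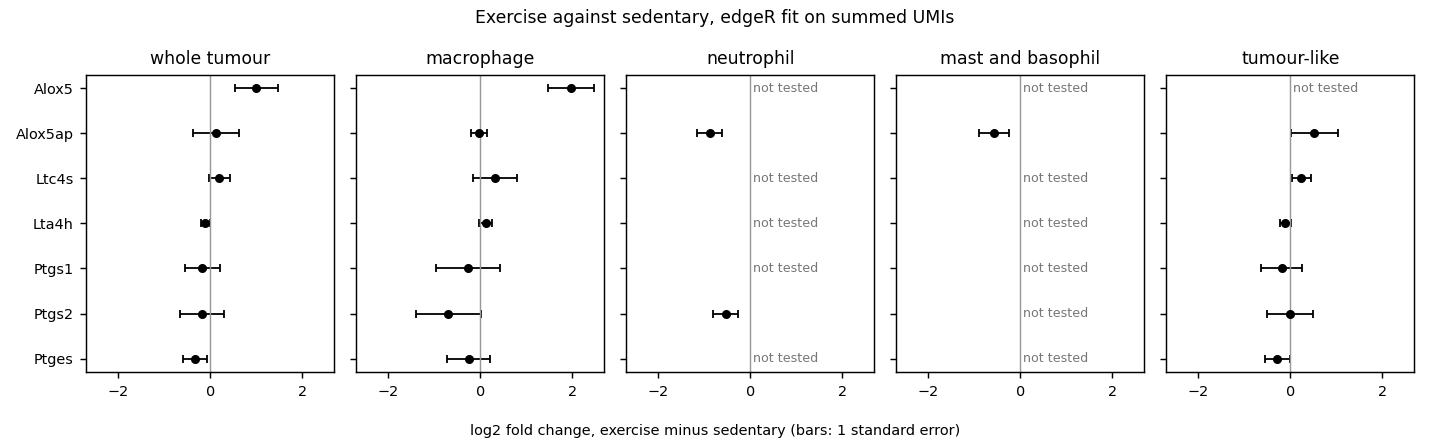
Points are log2 fold changes, exercise minus sedentary, from the edgeR fit, and bars are 1 standard error, for each member and comparison of 3 libraries against 3. Only Alox5 in macrophages (1.97) and Alox5ap in neutrophils (-0.88) lie more than 3 standard errors from 0, and neither passed after adjustment.

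The rest of the pathway, 55 genes in 5 lists, was read in the same fits. In every list and comparison 0 genes rose and 0 fell by edgeR. In macrophages 7 of 12 genes of arachidonate supply, 9 of 19 of leukotriene metabolism, 7 of 9 terminal prostanoid synthases, 5 of 6 genes of prostaglandin breakdown and transport and 3 of 9 prostanoid receptors were tested. The median log2 fold changes of these lists, in that order, were -0.01, 0.11, -0.08, 0.17 and 0.38, beside -0.01 over all genes tested. In neutrophils Fpr2, singled out here after its values were seen, encodes a receptor for formyl peptides and lipid mediators, and was 132, 195 and 101 CPM in sedentary and 322, 404 and 600.2 CPM after exercise (log2 difference 1.28, SE 0.35, edgeR adjusted p 0.111), the last 3 all above the first 3. Scaled by library totals alone, Fpr2 passed in neutrophils (1.46, edgeR adjusted p 0.0361), and it was called in no other of the 14 settings, over which the log2 difference was 0.97 to 1.98. Cyp4f18, of the same list, was separated the other way in neutrophils, at 299.8, 253 and 279 CPM in sedentary and 221, 115 and 200.1 CPM in exercise libraries (-0.57, SE 0.34, edgeR adjusted p 0.656). Of the 1752 genes tested in neutrophils, 10.8% were separated with exercise higher and 4.79% with exercise lower. In exercise 6 neutrophils 1 UMI equals 57.7 CPM, so the values of both genes there rest on few UMIs.

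Tbxas1, the thromboxane synthase gene, was 80.5, 48.8 and 59.2 CPM in sedentary and 87.6, 87.7 and 87.3 CPM in exercise macrophages, a log2 difference of 0.45 (SE 0.16, edgeR adjusted p 1.0).

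The named pathway genes were divided over the classes in several ways. The phospholipase gene Pla2g4a, which frees arachidonic acid, stood at 81.1 CPM in macrophages and 29.6 CPM in tumour-like cells. Cysltr1, a receptor for cysteinyl leukotrienes, was at 92.0 CPM in macrophages and 0.1 CPM in tumour-like cells. Ltb4r1, the receptor for the leukotriene made by Lta4h, was at 102.7 CPM in neutrophils and 70.0 CPM in macrophages, and Cyp4f18, which breaks that leukotriene down, at 228 and 91.4 CPM. Among terminal synthases, Hpgds, which makes prostaglandin D, was highest in mast cells (197 CPM) and macrophages (99.9 CPM). Tbxas1 was at 75.2 CPM in macrophages and at or under 5.8 CPM in neutrophils, mast cells and tumour-like cells. Mgst3 and Mgst2, glutathione transferases related to Ltc4s, were higher in tumour-like cells (68.3 and 23.6 CPM) than in macrophages (14.6 and 2.4 CPM). Ptges3 was at 81.2 to 311 CPM in all 4 classes. Of the 9 receptor genes, Ptgir, the prostacyclin receptor gene, alone reached 20 CPM in a class (24.8 CPM in mast cells). That value rests on few UMIs, because the 6 Ptges UMIs of the mast class, all libraries summed, gave 19.2 CPM.

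The genes with the most similar pattern were found over 36 sums of 6 classes in 6 libraries, by Pearson's r of log2(CPM + 1) among 8215 genes. These points share cells and libraries, and r is a description. Alox5 was nearest to Hdc (0.91) and Cpa3 (0.88), and to Prkcb. Both Hdc and Cpa3 are in the mast gate, and Hdc was also a leading gene of the neutrophil class. Alox5ap was nearest to Csf2rb (0.98), Pilra and Ccl6, and Ptgs2 to Dusp1 (0.94), Grina and Ndel1. Ltc4s was nearest to Prrx2 (0.91), Nckap1 and Sorbs2, and Ptges to Dcn (0.85), Gas8 and Vangl1. Lta4h was nearest to Pop5 (0.87), Faim and Lsm1. Ptgs1 had the least close partners, Tpp1 (0.82), Atp6v0d2 and Camk1.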

How the data were processed

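Whole-tumour cell suspensions were measured with 10x Genomics 3' version 3 chemistry. The authors deposited raw UMI counts per gene and barcode, which the submitters' processing notes trace to Cell Ranger 6.1.2 and mm10, while the file headers name software version 3.1.0. The members and gene lists were chosen with earlier results of these data known, and the gates were set with these data in view.

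Of 58351 barcodes, the 52390 with 300 or more genes, 500 or more UMIs and no more than 20% of UMIs from mitochondrial genes entered the analysis. Gates needed 4 markers for macrophages, neutrophils and mast cells and 3 for monocytes, T and NK cells and tumour-like cells, with no Ptprc UMI in the last, and a minimum share of UMIs from the class's marker list (0.1% for macrophages and monocytes, 1% for neutrophils, 0.5% for mast cells, 0.02% for tumour-like cells). No doublet caller was run. Cells passing more than 1 gate were set aside, with the monocyte gate left out of this count. Cells passing both the macrophage and the monocyte gate were classed as macrophages. Free RNA was not corrected.

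UMIs were summed per library and class and tested with edgeR 4.0.16 (R 4.3.3; filterByExpr, TMM, robust quasi-likelihood, two-sided, Benjamini-Hochberg, threshold 0.05), with DESeq2 1.42.0 as an alternative. The scripts were tested on simulated counts with known changes. With 3 libraries against 3 an exact permutation test cannot go below p = 0.1. Named genes were the members, pathway genes at 20 CPM or more in 1 of the 4 classes, and the 3 genes nearest in pattern. The pathway gene Dpep2 has 2 rows in the matrices and was not used. Positions come from GENCODE (30934 of 31053 identifiers matched) and promoters from RefSeq. Python 3.11.15, numpy 2.4.6, pandas 2.3.3, scipy 1.17.1 and matplotlib 3.10.9 were used.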

Additional observations from a re-analysis of the deposited data

How the results depend on the processing

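No member was called in any comparison under any alternative run (DESeq2, library totals only, no filter on low counts, a mitochondrial limit of 10%, a stricter gate, no cells of the highest UMI totals, and leaving out libraries). Of 284 alternative fold changes of members, 254 kept the direction and 30 had the opposite one, and 0 passed. No paired analysis was possible because the sedentary and exercise libraries share no replicate numbers.

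Log2 fold changes that changed sign when 1 library was left out, with their range, were in the whole tumour Alox5ap (-0.50 to 0.62), Ltc4s (-0.025 to 0.35), Ptgs1 (-0.45 to 0.30) and Ptgs2 (-0.46 to 0.18). In macrophages they were Alox5ap (-0.18 to 0.14), Ptgs1 (-0.81 to 0.25), Ptgs2 (-1.30 to 0.19) and Ptges (-0.64 to 0.04), and in tumour-like cells Alox5ap (-0.37 to 0.85), Ptgs1 (-0.54 to 0.46) and Ptgs2 (-0.31 to 0.38). Without the shallow pair, sedentary 2 and exercise 5, the opposite sign was found in the whole tumour for Alox5ap (-0.017), Ltc4s (-0.12) and Ptgs1 (0.48), in macrophages for Alox5ap (0.017) and Ptges (0.064), and in tumour-like cells for Alox5ap (-0.49), Ltc4s (-0.12) and Ptgs1 (0.59). Library totals gave Alox5ap in macrophages 0.0026, and the stricter gate gave it 0.050 and Ptgs2 in tumour-like cells 0.023. The cause was not tested.

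Alox5 in macrophages kept its direction, with log2 fold changes of 1.43 to 2.19 when 1 library was left out and edgeR adjusted p of 0.220 to 1.0 over all alternatives, 0.220 without a filter on low counts. Alox5ap in neutrophils ranged from -1.16 to -0.70, with adjusted p of 0.125 to 0.589. With each cell thinned to 500 UMIs, the mean level was 34.5 CPM for Lta4h in macrophages (40.9 before), 18.3 CPM for Ptges in macrophages (10.8 before) and 0.0605 CPM, on 1 UMI, for Alox5 in tumour-like cells (0.0364 before). The splits of macrophages by depth and by mast gene UMIs were added after seeing the data. Over all genes, edgeR calls without 1 library numbered 0 to 14 in neutrophils (14 without sedentary 3, 4 without exercise 8, 2 without sedentary 1), 0 to 4 in mast cells (4 without exercise 5, 3 without exercise 8) and 0 or 1 in tumour-like cells, and library totals gave 12 in neutrophils. Neutrophils and mast cells were too few for 5 and 6 of the 7 members to be tested.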
